A study of Mus musculus with 9 samples.

Results

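The circadian clock genes were read as 10 rows of the gene count table of MyC-CaP cells, chosen by gene symbol: Arntl, Clock, Per1, Per2, Per3, Cry1, Cry2, Nr1d1, Nr1d2 and Dbp, of 15384 protein-coding genes in all. MyC-CaP is a mouse prostate cancer line that responds to androgen, from a tumor of a mouse with a prostate-directed MYC transgene, and is 1 line. Cells adhered to the plate, were starved in medium without serum or calcium, and then received 100 ng/mL recombinant mouse asporin (ASPN), which stromal fibroblasts of tumors secrete. RNA was collected at time 0, 12 hours and 24 hours, with 3 libraries labeled as biological replicates at each time. The time 0 libraries carry the ASPN label as well, and they were taken as the start of the time course, as the study uses them. None of the 9 libraries comes from cells held equally long without ASPN, so ASPN and the hours since starvation cannot be told apart in any comparison. All 3 comparisons share libraries: time 0 serves both 12 and 24 hours, and each later time serves 2 comparisons.

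The clock of mammalian cells is a transcriptional feedback loop. Arntl (also called BMAL1) and CLOCK bind E-box sequences as a pair and activate Per, Cry, Nr1d and Dbp genes. PER and CRY proteins then return to the nucleus and inhibit that pair, while the nuclear receptors NR1D1 and NR1D2 (REV-ERB alpha and beta) repress Arntl through ROR elements and RORA activates it there. DBP activates genes through D-boxes. In cultured cells the loop runs in each cell, and a change of serum or a hormone can bring many cells to a common phase, so that mRNA levels swing over about a day in the population.

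The promoter windows of 6 members are shown because each of them holds a letter match to a clock motif. The windows are from RefSeq (GRCm38.p6) and reach from 250 bases before to 50 bases after an annotated start site. Windows were found for 9 of the 10 members, and not for Per2. Matches are in capitals and the other bases in lower case, each sequence reads 5′ to 3′ along its gene, and where a gene had several windows the one with most matches is shown.
Per1: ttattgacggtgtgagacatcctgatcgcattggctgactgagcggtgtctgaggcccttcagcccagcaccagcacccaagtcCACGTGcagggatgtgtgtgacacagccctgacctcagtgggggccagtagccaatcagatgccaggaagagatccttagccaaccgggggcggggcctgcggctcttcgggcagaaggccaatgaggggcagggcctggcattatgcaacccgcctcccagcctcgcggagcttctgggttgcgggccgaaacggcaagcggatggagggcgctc
Cry1: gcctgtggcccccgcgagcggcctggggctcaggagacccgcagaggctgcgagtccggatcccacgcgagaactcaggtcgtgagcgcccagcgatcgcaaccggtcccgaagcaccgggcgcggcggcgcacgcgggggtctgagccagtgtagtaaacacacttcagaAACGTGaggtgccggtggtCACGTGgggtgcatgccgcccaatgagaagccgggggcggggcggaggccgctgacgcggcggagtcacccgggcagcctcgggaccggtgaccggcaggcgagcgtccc
Cry2: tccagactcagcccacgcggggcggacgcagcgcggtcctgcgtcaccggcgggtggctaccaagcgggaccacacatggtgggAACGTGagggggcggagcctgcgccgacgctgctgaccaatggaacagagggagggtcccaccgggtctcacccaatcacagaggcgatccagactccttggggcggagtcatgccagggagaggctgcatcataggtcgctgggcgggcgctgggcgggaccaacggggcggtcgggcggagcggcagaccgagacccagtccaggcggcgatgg
Nr1d1: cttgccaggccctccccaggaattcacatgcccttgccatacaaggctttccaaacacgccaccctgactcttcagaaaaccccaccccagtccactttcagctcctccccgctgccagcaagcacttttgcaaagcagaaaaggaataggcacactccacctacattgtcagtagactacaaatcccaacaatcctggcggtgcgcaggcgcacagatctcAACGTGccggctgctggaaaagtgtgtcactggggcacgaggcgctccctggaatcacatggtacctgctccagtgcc
Per3: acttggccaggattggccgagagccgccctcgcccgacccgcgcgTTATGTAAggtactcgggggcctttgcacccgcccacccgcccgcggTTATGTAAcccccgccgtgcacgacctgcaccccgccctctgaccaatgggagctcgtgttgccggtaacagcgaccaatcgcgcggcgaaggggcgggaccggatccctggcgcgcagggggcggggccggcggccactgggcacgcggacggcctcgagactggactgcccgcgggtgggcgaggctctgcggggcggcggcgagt
Arntl: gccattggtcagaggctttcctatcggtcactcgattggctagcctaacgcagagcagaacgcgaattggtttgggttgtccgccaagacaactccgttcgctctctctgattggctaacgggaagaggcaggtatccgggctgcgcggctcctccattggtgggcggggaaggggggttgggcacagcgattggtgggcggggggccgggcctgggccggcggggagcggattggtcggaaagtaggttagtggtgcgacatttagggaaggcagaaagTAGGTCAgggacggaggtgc
The Per1 start site shown lies 3732 bases downstream of the gene start given in the count table. The Per1 window (chr11:69098699-69098998, plus strand) holds an E-box, CACGTG, from base -166 to -161, where the start site is base 0. The Cry1 window (chr10:85185005-85185304, minus strand) holds an E-box from -60 to -55 and an E'-box, written CACGTT on the other strand, from -79 to -74. The Cry2 window (chr2:92434020-92434319, minus strand) holds 1 E'-box from -166 to -161. The Nr1d1 window (chr11:98775328-98775627, minus strand) holds 1 E'-box from -28 to -23. The Per3 window (chr4:151044616-151044915, minus strand) holds 2 D-boxes of the letters TTATGTAA, from -205 to -198 and from -158 to -151. The Arntl window (chr7:113207261-113207560, plus strand) holds the ROR element TAGGTCA from 30 to 36, past the start site. Among the 9 members, an E-box was in a window of 2 genes and an E'-box in 3 (Cry1, Cry2 and Nr1d1), against 8.09% and 5.44% of all 27025 genes with windows. A D-box (TTATGTAA or TTACGTAA) was in 1 member and 1.23% of all genes, a ROR element (TAGGTCA or TGGGTCA) in 1 member and 7.35% of all genes, and the cAMP response element TGACGTCA in 0 members and 2.03% of all genes. Both strands were searched and 0 matches overlapped. A match is a description of letters and does not show that a factor bound there.

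Libraries held 41881191 to 52993821 counts in total. TMM factors, which scale libraries to the bulk of genes, were 1.04 to 1.07 at 0 and 12 hours and 0.899 to 0.914 at 24 hours. Mitochondrially encoded mRNAs took 2.6% to 2.85% of the counts at 0 and 12 hours and 0.113% to 0.203% at 24 hours, so the 24 hour libraries stood apart from the other 6, and the part of this in the results was not tested. The labels call the cells epithelial-like. Of the epithelial markers, Krt8 (1162 to 2038 counts) was expressed in every library, while Krt18 (2 to 22), Cdh1 (0 to 10) and Epcam (0 to 1) were close to absent. Krt8 had 24.8 to 26.7 CPM at time 0 and 32.1 to 42.2 CPM in the 24 hour libraries, and its part in the results was not tested. Of the fibroblast markers, 3 of 5 were in the table and Pdgfra had 350 to 689 counts, but Col1a1 had 0 to 8 and Dcn 7 to 29. This list summed to 13.0 to 14.1 CPM at time 0, and at 24 hours to 9.09 to 10.3 CPM. Endothelial markers (3 of 4 in the table) had at most 6 counts, and of the leukocyte markers (2 of 5) Cd68 had 12 to 37 and Cd3e 0 to 1.

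After 24 hours, 6 of the 10 clock genes differed from time 0. Per1, Per2, Per3, Cry2 and Dbp fell and Arntl rose, while Clock, Cry1, Nr1d1 and Nr1d2 differed by less than 1.5-fold. A gene was called where edgeR's quasi-likelihood test gave an adjusted p (Benjamini-Hochberg, over all genes tested) of at most 0.05 together with a change of 1.5-fold or more. At 24 hours 28.8% of 11444 genes were called (12.0% higher, 16.8% lower), so calls were common, and 1 member was called higher and 5 lower. Scaled by total counts, calls over all genes shifted from 1374 higher and 1924 lower to 698 and 3008, with a median log2 fold change of -0.24, while the members still had 1 higher and 5 lower. The members' log2 fold changes at 24 hours had a median of -0.62, where the median of all genes tested was -0.02. At 12 hours 0 of the 10 members were called, against 1.60% of 11410 genes (171 higher, 11 lower), and DESeq2 also called 0. An unadjusted p under 0.05 in edgeR was reached by 3 members at 12 hours (Per1, Per2 and Dbp). The share of all genes at that threshold was not computed, and 10.3% of them had an adjusted p of 0.05 or less. All 10 members passed the filter on low counts in each comparison. Levels are given as CPM, which are counts relative to the size of the library, scaled with TMM over the 9 libraries. The 3 libraries of a time are labeled as biological replicates and the cells were plated as triplicate wells, so p-values measure the spread between wells of 1 line. In bulk RNA, fewer cells that express a gene and less mRNA per cell cannot be told apart.

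**Figure D1:**
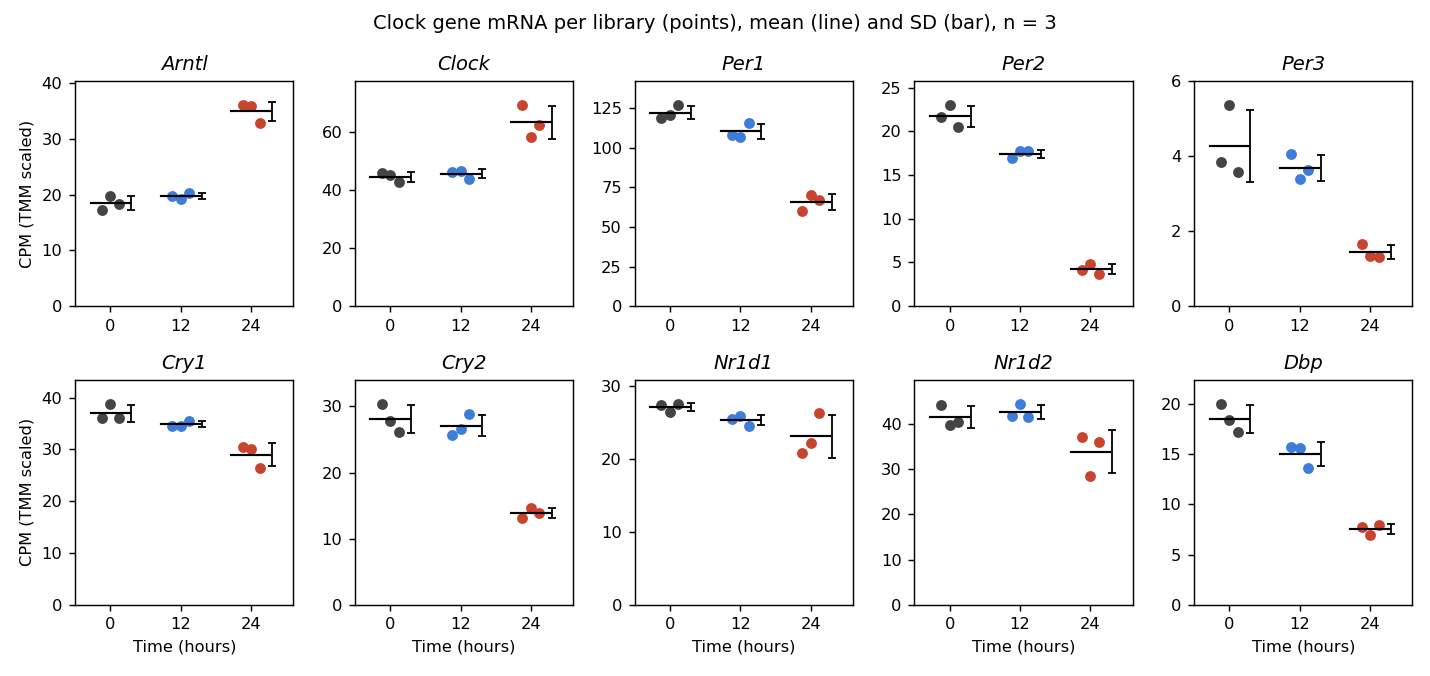
CPM (TMM scaled, vertical axis, from 0) of the 10 clock genes against time in hours; points are libraries, lines are means and bars are SD of 3 libraries. Arntl and Clock were highest at 24 hours, whereas Per1, Per2, Per3, Cry2 and Dbp were lowest there, with no overlap with the earlier times.

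Of the activators, Arntl (ENSMUSG00000055116.8, chromosome 7, 113207465 to 113314126 in GRCm38) encodes the partner of CLOCK. Arntl had 17.3, 19.8 and 18.4 CPM in the 3 libraries of time 0, 19.8, 19.3 and 20.3 at 12 hours and 36.1, 35.9 and 32.9 at 24 hours. All 3 libraries of 24 hours lay above the other 6, and those of 0 and 12 hours overlapped. Arntl rose 1.90-fold at 24 hours (log2 fold change 0.93, SE 0.07, edgeR adjusted p = 4.2e-08), after a log2 fold change of 0.11 at 12 hours (SE 0.06, edgeR adjusted p = 0.38), or 0.062 without time 0 library 1. From 12 to 24 hours its log2 fold change was 0.84 (SE 0.06, edgeR adjusted p = 2.6e-08). Clock (ENSMUSG00000029238.11, chromosome 5, 76209868 to 76304792) encodes the protein that pairs with ARNTL. Clock had 45.7, 45.3 and 42.6 CPM at time 0, 46.3, 46.5 and 43.7 at 12 hours and 69.2, 58.3 and 62.3 at 24 hours. The 24 hour libraries were again above all others, but the change was 1.43-fold, short of the threshold (log2 fold change 0.51, SE 0.06, edgeR adjusted p = 6.6e-06). Scaled by total counts, the log2 fold change of Clock was 0.29 and that of Arntl 0.70.

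Among the inhibitors, the 3 Per genes encode the PER proteins of the loop, and Per2 had the largest change of all members. Per2 (ENSMUSG00000055866.9, chromosome 1, 91415982 to 91459324) had 21.7, 23.0 and 20.5 CPM at time 0, 16.9, 17.7 and 17.7 at 12 hours and 4.15, 4.85 and 3.67 at 24 hours. The 3 times did not overlap, with each later time below the earlier one. At 24 hours Per2 fell 5.11-fold (log2 fold change -2.35, SE 0.10, edgeR adjusted p = 5.9e-10), and ranked 58 from the lowest log2 fold change of 11444 genes. The log2 fold change of Per2 at 12 hours was -0.31 (SE 0.06, edgeR adjusted p = 0.0026), a 1.24-fold difference that was below the fold threshold. From 12 to 24 hours Per2 fell 4.06-fold (edgeR adjusted p = 9.1e-10).

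Per3 (ENSMUSG00000028957.12, chromosome 4, 151003652 to 151044665) was the member with fewest reads, at 157 to 250 counts per library at 0 and 12 hours and 62 to 68 at 24 hours. Its CPM were 3.84, 5.36 and 3.58 at time 0, 4.05, 3.38 and 3.64 at 12 hours and 1.66, 1.35 and 1.31 at 24 hours. The first 2 times overlapped and the 24 hour libraries lay below both. Per3 fell 2.95-fold at 24 hours (log2 fold change -1.56, SE 0.19, edgeR adjusted p = 7e-06), and its log2 fold change at 12 hours was -0.20 (SE 0.15, edgeR adjusted p = 0.50). That value was -0.0051 without time 0 library 2 and -0.31 without time 0 library 3. Per1 (ENSMUSG00000020893.17, chromosome 11, 69095217 to 69109960), which hormones and cAMP also induce directly in many cells, had 119, 121 and 127 CPM at time 0, 108, 107 and 116 at 12 hours and 59.9, 70.2 and 67.0 at 24 hours. As with Per2, no library of a later time reached the level of an earlier one. Per1 fell 1.85-fold at 24 hours (log2 fold change -0.89, SE 0.06, edgeR adjusted p = 1.1e-08). After a correction of each library for transcript length and GC content, this log2 fold change was -0.53 and Per1 was no longer called, and the change from 12 to 24 hours moved from -0.73 to -0.36. At 12 hours the log2 fold change of Per1 was -0.14 (SE 0.04, edgeR adjusted p = 0.021). That adjusted p exceeded 0.05 in 4 of 14 alternatives (0.11 to 0.14), with all 9 libraries in the fit and without time 0 library 3, 12 hour library 1 or 12 hour library 2.

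The 2 Cry genes encode the cryptochromes, which inhibit the activator pair together with PER, and their values at 24 hours were not alike in size. Cry2 (ENSMUSG00000068742.11, chromosome 2, 92403646 to 92434043) had 30.4, 27.8 and 26.1 CPM at time 0, 25.7, 26.6 and 28.9 at 12 hours and 13.1, 14.7 and 13.9 at 24 hours. The first 2 times overlapped and 24 hours lay below both. Cry2 fell 2.01-fold at 24 hours (log2 fold change -1.01, SE 0.07, edgeR adjusted p = 4.9e-08). Cry1 (ENSMUSG00000020038.10, chromosome 10, 85131700 to 85185064) had 36.0, 38.8 and 36.0 CPM at time 0, 34.5, 34.6 and 35.5 at 12 hours and 30.5, 30.1 and 26.4 at 24 hours. Each time lay below the one before, but by little: the log2 fold change at 24 hours was -0.35 (SE 0.07, edgeR adjusted p = 3.4e-04), or 1.27-fold. The difference between the changes of Cry1 and Cry2 was not tested.

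Nr1d1 and Nr1d2 encode the REV-ERB repressors, and neither was called at any time. Nr1d1 (ENSMUSG00000020889.11, chromosome 11, 98767932 to 98775333) had 27.3, 26.4 and 27.5 CPM at time 0, 25.4, 25.8 and 24.5 at 12 hours and 20.7, 22.1 and 26.3 at 24 hours. The third library of 24 hours lay above all 12 hour libraries and the other two lay below them, and all 3 were below time 0, by as little as 26.3 against 26.4 CPM. The log2 fold change of Nr1d1 at 24 hours was -0.22 (SE 0.08, edgeR adjusted p = 0.022). The adjusted p exceeded 0.05 in 6 of 14 alternatives (0.061 to 0.082), which were the length and GC correction with and without the replicate block, and leaving out time 0 library 1 or 3 or 24 hour library 1 or 2. Nr1d2 (ENSMUSG00000021775.11, chromosome 14, 18204054 to 18239127) had 44.2, 39.7 and 40.3 CPM at time 0, 41.8, 44.4 and 41.5 at 12 hours and 37.1, 28.4 and 36.0 at 24 hours. The 24 hour libraries lay below the others, by a log2 fold change of -0.29 from time 0 (SE 0.09, edgeR adjusted p = 0.009, and 0.063 without time 0 library 1). Without 24 hour library 2, the lowest of the 3, the log2 fold change of Nr1d2 was -0.17 (edgeR adjusted p = 0.021). Total-count scaling moved the log2 fold change at 24 hours to -0.45 for Nr1d1, -0.51 for Nr1d2 and -0.57 for Cry1, none of which passed 1.5-fold.

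Dbp (ENSMUSG00000059824.12, chromosome 7, 45705088 to 45710203) encodes the D-box activator and is a direct target of the activator pair. Dbp had 20, 18.4 and 17.2 CPM at time 0, 15.7, 15.6 and 13.6 at 12 hours and 7.79, 6.92 and 7.91 at 24 hours. The 3 times did not overlap and each was below the one before. Dbp fell 2.45-fold at 24 hours (log2 fold change -1.29, SE 0.09, edgeR adjusted p = 3.1e-08) and again from 12 to 24 hours (log2 fold change -0.97, SE 0.09, edgeR adjusted p = 3.7e-07). Between time 0 and 12 hours Dbp had a log2 fold change of -0.30 (SE 0.08, edgeR adjusted p = 0.017, and 0.10 without 12 hour library 3). Exons of Dbp overlap those of Sphk2 on the opposite strand over 539 bases, 18.0% of its exon length, and whether strand was used in counting is not given in the sources used here, so reads there cannot be told apart. Sphk2 also fell at 24 hours (log2 fold change -0.98, SE 0.08, edgeR adjusted p = 2.2e-07). Nr1d1 overlaps Thra in the same way over 263 bases, 8.55% of its exons, and Thra had a log2 fold change of 0.05 at 24 hours (SE 0.07, edgeR adjusted p = 0.48). Exons of Cry2 overlap those of D930015M05Rik on the opposite strand over 295 bases (4.67%). Those of Arntl overlap Gm45355 on the opposite strand over 33 bases (0.439%).

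**Figure D2:**
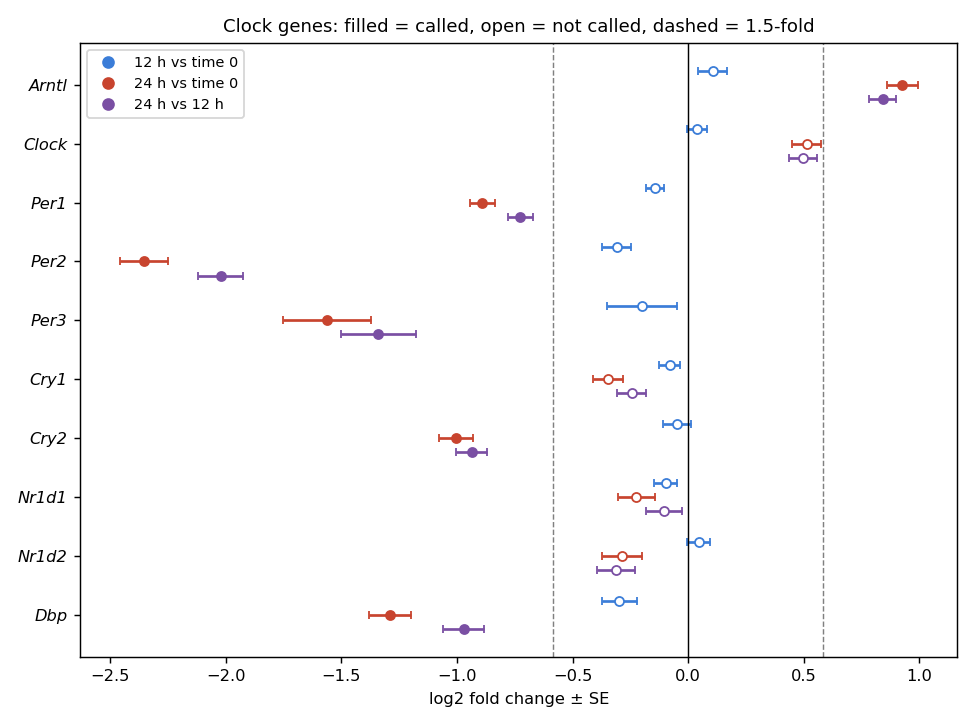
Log2 fold change (horizontal axis) with SE of each clock gene in the 3 comparisons, which share libraries; filled points were called and open points were not, and dashed lines mark 1.5-fold. At 12 hours every point is open, and at 24 hours the points run from -2.35 (Per2) to 0.93 (Arntl).

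Libraries of 24 hours did not overlap those of time 0 for any of the 10 members, 2 higher and 8 lower, where 73.9% of all genes tested did not overlap (35.6% higher, 38.3% lower). At 12 hours the libraries of Per1, Per2, Cry1, Nr1d1 and Dbp lay below all of time 0, and those of the other 5 overlapped, where 27.0% of all genes did not overlap (13.4% higher, 13.6% lower). An adjusted p of 0.05 or less was reached by Per1, Per2 and Dbp at 12 hours, where 10.3% of all genes reached it, and by all 10 members at 24 hours, where 70.9% did. Between 12 and 24 hours, 6 members were called, Arntl higher and Per1, Per2, Per3, Cry2 and Dbp lower, where 25.7% of 11394 genes were called (10.4% higher, 15.3% lower). In this comparison 9 members had an adjusted p of 0.05 or less, against 71.3% of all genes, and libraries of 9 members did not overlap, 2 higher and 7 lower, against 73.9% (35.5% higher, 38.5% lower). Nr1d1 was the remaining member in both (log2 fold change -0.11, SE 0.08, edgeR adjusted p = 0.24). Its log2 fold change from 12 to 24 hours was -0.21 without 24 hour library 3 (edgeR adjusted p = 0.012), -0.33 with total-count scaling (edgeR adjusted p = 0.0016), -0.039 without 24 hour library 1 and -0.045 after the length and GC correction.

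To compare levels between the genes, counts were also divided by exon length (RPKM on the TMM scale). At time 0 the order was Per1 (21.7 ± 0.71 RPKM; SD, n = 3), Cry1 (11.1 ± 0.49), Nr1d1 (8.79 ± 0.19), Nr1d2 (7.65 ± 0.45), Dbp (6.19 ± 0.47), Cry2 (4.45 ± 0.34), Per2 (3.71 ± 0.21), Clock (3.24 ± 0.12), Arntl (2.46 ± 0.17) and Per3 (0.444 ± 0.10), and no neighbors in this order overlapped. At 12 hours Per2 (2.98 ± 0.077 RPKM) had moved below Clock (3.32 ± 0.11), and Nr1d1 overlapped Nr1d2 and Dbp overlapped Cry2. At 24 hours Per1 (11.7 ± 0.93 RPKM) and Cry1 (8.68 ± 0.68) still led. Arntl (4.65 ± 0.24 RPKM) and Clock (4.61 ± 0.41), which overlapped each other, then stood above Dbp (2.52 ± 0.18), Cry2 (2.20 ± 0.13), Per2 (0.721 ± 0.10) and Per3 (0.150 ± 0.020). Other neighbors that overlapped at 24 hours were Cry1 with Nr1d1, Nr1d1 with Nr1d2, and Dbp with Cry2. The levels per length assume that all annotated exons of a gene were transcribed.

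The other genes of the clock pathway were described from a list of 21, of which 20 were in the table and 15 passed the filter on low counts; Rorb was not analysed here. Npas2 and Arntl2, the paralogs of Clock and Arntl, had at most 2 and 4 counts in a library, Hlf at most 7, Fbxl21 at most 3 and Bhlhe41 at most 1, so they were not tested. At 24 hours 3 of the 15 were called higher and 4 lower, where 12.0% and 16.8% of all genes were. At 12 hours 0 of the 15 were called, where 1.60% of all genes were, 2 with an adjusted p of 0.05 or less and a higher value (Csnk1e and Noct) and 1 with a lower value (Usp2). Of all genes, 10.3% had an adjusted p of 0.05 or less at 12 hours. DESeq2 also called 0 of the 15 at 12 hours. In edgeR 5 of the 15 had an unadjusted p under 0.05, a threshold at which the share of all genes was not computed. The median log2 fold change of the 15 at 24 hours was -0.35. With total-count scaling 0 were called higher and 6 lower at 24 hours. Between 12 and 24 hours 2 of the 15 were called higher (Rora and Bhlhe40) and 4 lower (Tef, Usp2 and Wee1 among them), where 10.4% and 15.3% of all genes were. With total-count scaling 0 of the 15 were called higher and 6 lower there as well, and calls over all genes moved from 1184 higher and 1740 lower to 484 and 2830. Of the 15, 4 were called in all without 12 hour library 1 or without 24 hour library 1, with Usp2 lost in both cases. Rora (log2 fold change 0.60 from 12 to 24 hours) fell short of the call in 7 of 14 alternatives. Without 24 hour library 1 it was 0.56, and with total-count scaling 0.38.

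Rora, which encodes an activator at ROR elements, had 29.8 to 32.4 CPM at time 0 and 44.5 to 50 at 24 hours and rose 1.55-fold (log2 fold change 0.63, SE 0.06, edgeR adjusted p = 5.1e-07). Rora was not called with total-count scaling (0.41) or after the length and GC correction (0.58). Tef, which encodes a relative of DBP, had 35.5 to 40.7 CPM at time 0 and 12.5 to 12.8 CPM at 24 hours. Tef fell 3.00-fold at 24 hours (log2 fold change -1.58, SE 0.07, edgeR adjusted p = 3.7e-10), the most among these 15 genes. Nfil3, which encodes a repressor at D-boxes, had a log2 fold change of 0.14 (SE 0.07, edgeR adjusted p = 0.076).

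Bhlhe40 encodes DEC1, a repressor at E-boxes, and had 183 to 203 CPM at time 0 and 256 to 340 at 24 hours. Bhlhe40 rose 1.57-fold (log2 fold change 0.65, SE 0.08, edgeR adjusted p = 8.1e-06), but fell short of the call without 24 hour library 2 (0.54) and with total-count scaling (0.43). Ciart, which encodes another repressor of the activator pair, had a log2 fold change of -0.35 (SE 0.07, edgeR adjusted p = 3.1e-04). Of the clock output genes, Noct, which encodes nocturnin, rose 1.67-fold from 27.0 to 30.5 CPM at time 0 to 43.4 to 54.7 at 24 hours (log2 fold change 0.74, SE 0.08, edgeR adjusted p = 2.3e-06). With total-count scaling the log2 fold change of Noct was 0.52, short of the call. Usp2, a deubiquitinase gene, had 16.0 to 18.8 CPM at time 0 and 8.11 to 9.17 at 24 hours and fell 1.95-fold (log2 fold change -0.97, SE 0.09, edgeR adjusted p = 4.9e-07). Wee1, the gene of a kinase that restrains entry into mitosis, had 13.5 to 14.2 CPM at time 0 and 5.40 to 7.68 at 24 hours and fell 2.05-fold (log2 fold change -1.03, SE 0.11, edgeR adjusted p = 2.4e-06). Of the genes of PER and CRY turnover, the kinases Csnk1d, Csnk1e and Gsk3b and the ubiquitin ligase subunits Btrc and Fbxw11 were not called, with log2 fold changes of -0.52 (Gsk3b) to 0.34 (Csnk1e) at 24 hours.

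**Figure D3:**
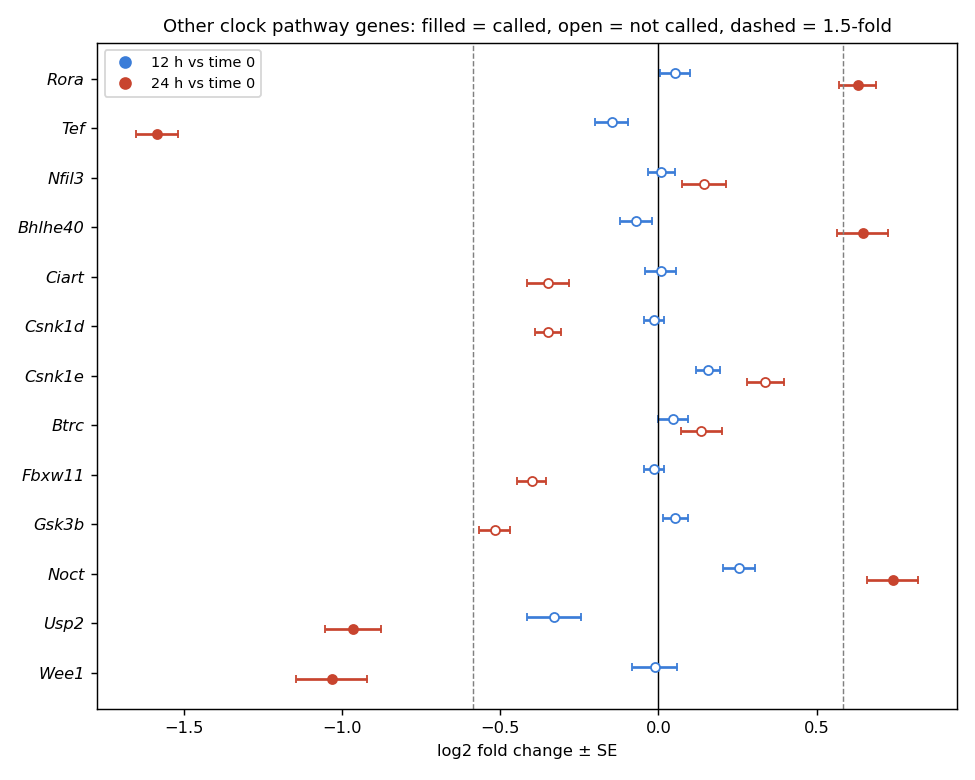
Log2 fold change (horizontal axis) with SE of 13 of the 15 other clock pathway genes tested at 12 and 24 hours relative to time 0; filled points were called and open points were not, and dashed lines mark 1.5-fold. At 24 hours Rora, Bhlhe40 and Noct lie past 1.5-fold on the right and Tef, Usp2 and Wee1 on the left.

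Across 14 other ways of processing, the members called at 24 hours kept their sign, and the plot of alternatives shows them, with those that left out 1 library as a range. The log2 fold change ranged from -2.58 to -1.96 for Per2, from -1.79 to -1.21 for Per3, from -1.51 to -1.21 for Dbp, from -1.23 to -0.80 for Cry2 and from 0.70 to 0.98 for Arntl. These 5 genes were called throughout, and Per1, from -1.11 to -0.53, was not.

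**Figure D4:**
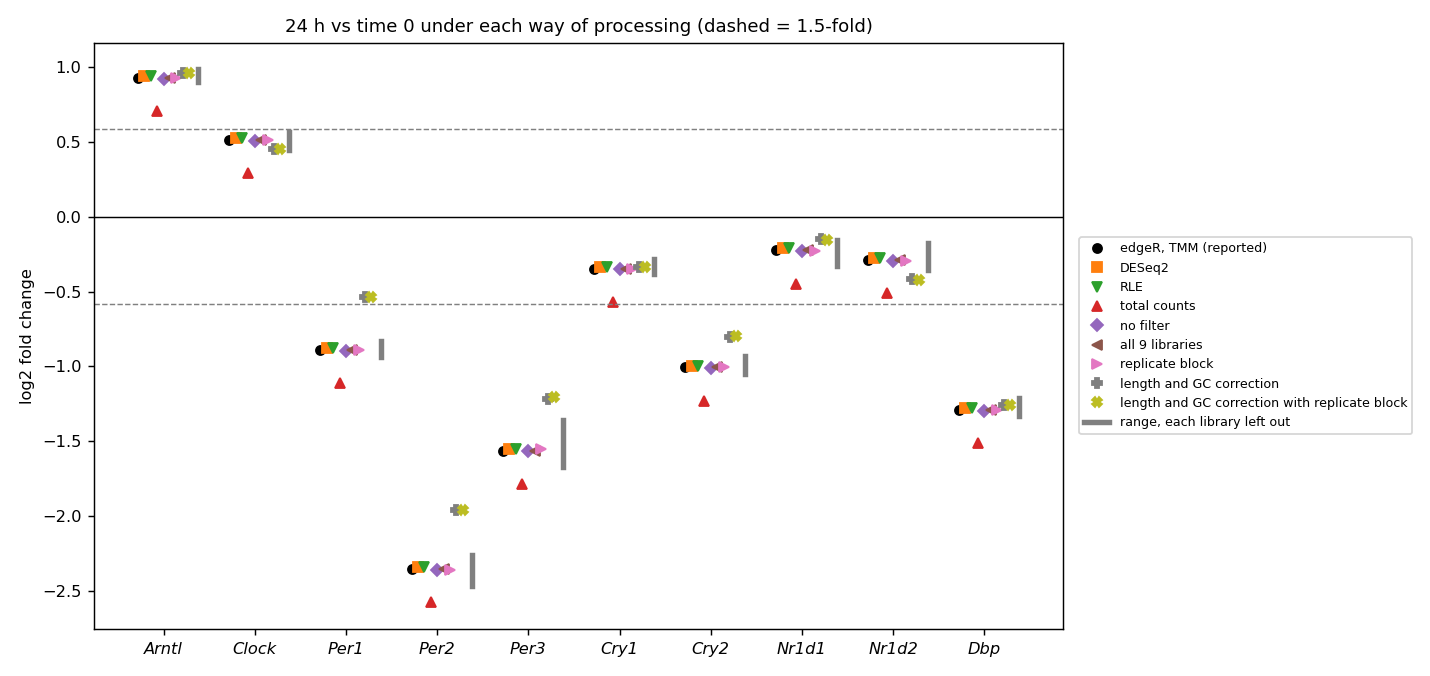
Log2 fold change of each clock gene at 24 hours relative to time 0 (vertical axis) under each way of processing, with the range over analyses that left out 1 library as a bar; dashed lines mark 1.5-fold. The sign of every member stayed the same, and Per1 crossed the 1.5-fold line, at -0.53 after the length and GC correction.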

How the data were processed

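RNA was sequenced from 9 MyC-CaP libraries. The authors trimmed the reads with Cutadapt, aligned them with STAR to GRCm38.p6 with GENCODE annotation, and counted reads per gene with featureCounts. The deposited values are raw counts of 15384 protein-coding genes, without normalization. The software was edgeR 4.0.16 (R 4.3.3) for the main tests, with DESeq2 1.42.0 and limma 3.58.1. Each comparison took 3 against 3 libraries: filterByExpr removed low counts, TMM gave the scaling, and the quasi-likelihood test of edgeR was two-sided and without a block, with Benjamini-Hochberg adjustment. The SE is the absolute log2 fold change divided by the square root of F. Exon lengths, GC content and strands came from GENCODE M21, in which 15374 of the 15384 genes were found (99.9%).

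The members and lists were chosen with earlier results of these data known. Named were all 10 members, other clock genes called in any comparison, and the 3 genes most correlated with Per2 and with Arntl over the 9 libraries. Nfil3, Ciart, Csnk1d, Csnk1e, Gsk3b, Btrc, Fbxw11 and the overlapping genes Sphk2 and Thra are named outside that rule, after their values were seen. D930015M05Rik and Gm45355 are named only for their overlap, without values. Alternatives were DESeq2, RLE factors, total counts, no filter, 1 fit of all libraries, the replicate number as a block, loess offsets (span 0.3) for length and GC content of the transcripts with and without the block, the adjusted p alone, and each library left out. In simulated counts for 24 hours against time 0 (11444 genes, 50 changed per fold size), 98.0% of 2-fold and 48.0% of 1.5-fold changes were called, with 3 unchanged genes called. The changed genes all had a mean of at least 50 counts, and few genes changed. In the data 70.9% of genes had an adjusted p of 0.05 or less, so the simulated shares may not hold there. Results of some genes of the lists are not reported here by name, and counts over a list include them. A total of 3 counts corresponds to 0.0566 to 0.0716 CPM. P-values measure the spread between these libraries of 1 cell line.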

Additional observations from a re-analysis of the deposited data

How the results depend on the processing

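Every clock gene kept its direction at 24 hours, relative to time 0 and to 12 hours, under all alternatives run. With the adjusted p alone, 3 members were called at 12 hours and 10 at 24 hours. Of the other clock genes, 3 were called at 12 hours, 13 at 24 hours and 13 between 12 and 24 hours. Of all genes tested, 10.3% reached that threshold at 12 hours, 70.9% at 24 hours and 71.3% between 12 and 24 hours. With single libraries left out, 0 members were called at 12 hours and 6 at 24 hours, and 4 to 6 of the other clock genes between 12 and 24 hours. After the length and GC correction 5 members were called at 24 hours and 5 between 12 and 24 hours, because Per1 fell short of 1.5-fold; the cause was not tested. With single libraries left out, the 12 hour log2 fold change of Cry2 ranged from -0.10 to 0.013 (reversed without time 0 library 1) and that of Wee1 from -0.052 to 0.033 (reversed without time 0 library 3, at 0.0070, and without 12 hour library 2); the cause was not tested. With the replicate number as a block, 0 members were called at 12 hours, 6 at 24 hours and 6 between 12 and 24 hours, as without it. Same-numbered libraries did not deviate together (mean correlation -0.01 between 0 and 12 hours, -0.06 between 0 and 24 hours and 0.02 between 12 and 24 hours). The labels do not say how the numbers were given, and these correlations cannot show whether such libraries were prepared together. Depth limited Per3 most, at 62 to 68 counts in a 24 hour library.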

Other observations

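The ratio of Arntl to Per2 counts within a library does not depend on the scaling of libraries. It was chosen after the values were seen, and is a description. It was 0.796, 0.862 and 0.899 at time 0, 1.17, 1.10 and 1.15 at 12 hours and 8.69, 7.41 and 8.97 at 24 hours, so that the 3 times did not overlap. No test was run on it.

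Over the 9 libraries, the genes whose log2 CPM correlated most with Per2 were Med22, a Mediator subunit gene (Pearson r = 0.999), Sec24d, a gene of vesicle coats (0.998), and Aifm3 (0.998). Those most correlated with Arntl were Tmpo, a gene of the nuclear lamina (0.998), Cyp51, a gene of sterol synthesis (0.997), and Jmjd6 (0.997). Of 10347 genes with a mean of at least 50 counts, 1896 had r over 0.95 with Per2 and 1530 with Arntl. The 9 points fall into 3 times and share their libraries, so these correlations describe mostly the difference of the 24 hour libraries from the others.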
